A study of Mus musculus with 149 samples.

Results

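Aminoacyl-tRNA synthetases were described in single hepatocytes of the mouse liver. Members were the table entries whose symbol is 1 letter followed by ars or ars2, together with Eprs, Farsa and Farsb, and these rules gave 37 of the 20308 mouse genes in the table. Of these, 20 encode cytosolic enzymes and 17, with symbols ending in 2, encode mitochondrial ones. All 20 cytosolic genes and 12 of the 17 mitochondrial genes were above 0 in at least 20% of the 149 cells, the limit for being counted as measured, as were 8813 genes in all. Aars2, Cars2, Ears2, Mars2 and Pars2 did not reach it.

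The study asked where single hepatocytes lie along the liver lobule, from the portal (periportal) to the central (pericentral) end. All 149 cells came from 1 untreated wildtype male C57BL/6 mouse, 8 weeks of age, whose liver was perfused and spun at low speed to enrich for hepatocytes. Single cells were caught on 3 Fluidigm C1 chips that differ in trap size, large (17 to 25 µm, 80 cells), medium (10 to 17 µm, 30 cells) and small (5 to 10 µm, 39 cells), and 92 synthetic ERCC RNAs were added as spike-ins. Cells of 1 mouse are not biological replicates and each chip is 1 sample, so no test was run and every difference below describes these cells.

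Aminoacyl-tRNA synthetases attach each amino acid to its own transfer RNA, the step that fixes the genetic code in every cell. Most amino acids have separate nuclear genes for the cytosolic and the mitochondrial enzyme. Gars and Kars supply both compartments from 1 gene, Qars has no mitochondrial counterpart, Eprs charges both glutamate and proline, and Farsa and Farsb are the subunits of 1 enzyme. Several cytosolic enzymes, Eprs, Dars, Iars, Kars, Lars, Mars, Qars and Rars, sit together in the multi-synthetase complex. In many cell types the transcription factor ATF4 raises a number of the cytosolic genes when amino acids run short, through a composite C/EBP-ATF element.

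Promoters are shown for motifs whose counts differ between cytosolic and mitochondrial members. RefSeq promoters (250 bases before to 50 after the start, GRCm38.p6) matched 26 members, 12 cytosolic and 14 mitochondrial, and 13 motifs were searched on both strands, chosen after values had been seen. The core of the C/EBP-ATF element, TGATGNAA, stood in 5 of the 12 cytosolic promoters (Aars, Gars, Iars, Tars and Yars) and in 0 of the 14 mitochondrial ones, against 4.51% of all 27025 genes with a promoter. TGATGCAA, a subset of these matches, stood in 4 (Aars, Iars, Tars and Yars), against 1.03% of all genes. Among the 13, ATTGCNTCA, a longer form of the element (2 cytosolic promoters, Aars and Iars, against 0.81% of all genes), was likewise in 0 mitochondrial promoters. So was the core of the interferon response element (1 cytosolic promoter, Qars, against 3.99%). The cAMP response element, the palindrome bound by Zbtb33, the ZNF143 site and the NRF1 site stood in 0 promoters of both compartments. A longer ETS site, CCGGAAGT, stood in 1 promoter of each. The E-box, CACGTG, stood in 4 cytosolic promoters (Aars, Farsb, Iars and Tars) and in 1 mitochondrial one (Ears2), against 8.09% of all genes. The CCAAT box stood in 3 cytosolic and 2 mitochondrial promoters (16.7% of all genes), and the TATA box in 1 and 2 (15.7%). The core of the ETS site, CCGGAA, stood in 7 mitochondrial promoters (Cars2, Iars2, Mars2, Rars2, Sars2, Tars2 and Wars2) and in 4 cytosolic ones (Farsa, Gars, Kars and Sars), against 16.7% of all genes. Matches of CCGGAA in Cars2, Sars2, Tars2 and Wars2 and of TGATGNAA in Aars lay in annotated exons. As examples, 5 matches upstream of the start and outside annotated exons follow, on the strand of the gene and with the motif in capitals. A motif on the opposite strand reads as its reverse complement. Tars, chr15:11399666-11399699, and Gars, chr6:55037945-55038000, carry TGATGNAA, which begins 15 and 30 bases before the start. Sars, chr3:108445260-108445294, Kars, chr8:112011355-112011386, and Iars2, chr1:185329408-185329450, carry CCGGAA, which begins 9, 6 and 38 bases before the start.
Tars: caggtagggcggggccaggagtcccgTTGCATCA
Gars: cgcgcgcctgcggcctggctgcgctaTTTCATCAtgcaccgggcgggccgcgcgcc
Sars: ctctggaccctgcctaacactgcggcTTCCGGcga
Kars: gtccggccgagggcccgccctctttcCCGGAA
Iars2: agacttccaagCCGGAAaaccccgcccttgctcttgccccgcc

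These are matches of letters, not measured binding. The 5 cytosolic genes with TGATGNAA had a median level per kilobase of 8.87 in the large chip and the 7 cytosolic promoters without it 15.3. Along the column order 0 of the 5 and 3 of the 7 were graded toward the periportal end, by the rule given below, against 15.4% of all measured genes. The median Spearman rho between pairs of the 5 genes, over the 64 large-chip cells with few spike-ins, was 0.037, against 0.038 over all pairs of measured genes.

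The values are normalised expected counts, and read depth per cell is unknown. The median cell had 7389.5 mouse genes above 0 in the large chip, 2306.5 in the medium and 3087 in the small one, and spike-ins took a median of 3.66%, 82.7% and 82.8% of the summed values. Results are therefore also given for cells with spike-ins under 50% (64 large, 7 medium and 12 small), a restriction chosen with earlier results known. Every cell had at least 6 of 7 hepatocyte markers above 0. At least 3 markers of another cell type were above 0 in 37 large-chip cells (bile duct markers in 22, endothelial in 17), 11 medium-chip cells (Kupffer cell markers in 8) and 17 small-chip cells (Kupffer cell markers in 12). The table lists cells from those rich in Cyp2f2, a periportal P450 enzyme, to those rich in Cyp2e1, a pericentral one. A cell's place in that list had a rho of 0.94, 0.91 and 0.82 with a score of 6 pericentral minus 6 periportal genes in the large, medium and small chip. Which genes set the order is not given in the sources used here.

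Cytosolic synthetases were found in more cells than mitochondrial ones. In the large chip the share of cells above 0 ran from 36.3% to 98.8% over the 20 cytosolic genes, with a median of 76.9%, and from 6.25% to 100% over the 17 mitochondrial genes, with a median of 60%. The median over all measured genes was 72.5%, and over the 12 measured mitochondrial genes 63.1%. Eprs was above 0 in 79 of the 80 cells of the large chip (98.8%, with an exact 95% interval from 93.2% to 99.97%), Nars, the asparagine enzyme, in 77 (96.3%, 89.4% to 99.2%), and Vars, the valine enzyme, in 29 (36.3%, 25.8% to 47.8%). Mars2, the mitochondrial methionine enzyme, was above 0 in 5 (6.25%, 2.06% to 13.99%). A median large-chip cell held 17 of the 20 cytosolic and 9 of the 17 mitochondrial messages. Intervals on shares of cells cover counting error only.

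On the medium and small chips most synthetases were listed at 0 in most cells. The median share above 0 was 30% and 30.8% for cytosolic genes and 13.3% and 15.4% for the 17 mitochondrial ones. Over the 12 measured mitochondrial genes it was 16.7% and 28.2%, against 30% and 30.8% for all measured genes. The exceptions were Lars2, above 0 in all 149 cells, Nars, above 0 in 86.7% of medium-chip and 87.2% of small-chip cells, and Aars, Eprs and Tars, between 56.7% and 66.7%. In cells with spike-ins under 50% the cytosolic medians were 90.6%, 71.4% and 54.2% in the large, medium and small chip. Those of the 17 mitochondrial genes were 70.3%, 42.9% and 33.3%. Over the 12 measured mitochondrial genes they were 71.9%, 50% and 54.2%, so in the small chip the measured genes of both compartments had the same median. The chips thus lay closer together in those cells, with the large chip still highest.

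**Figure D1:**
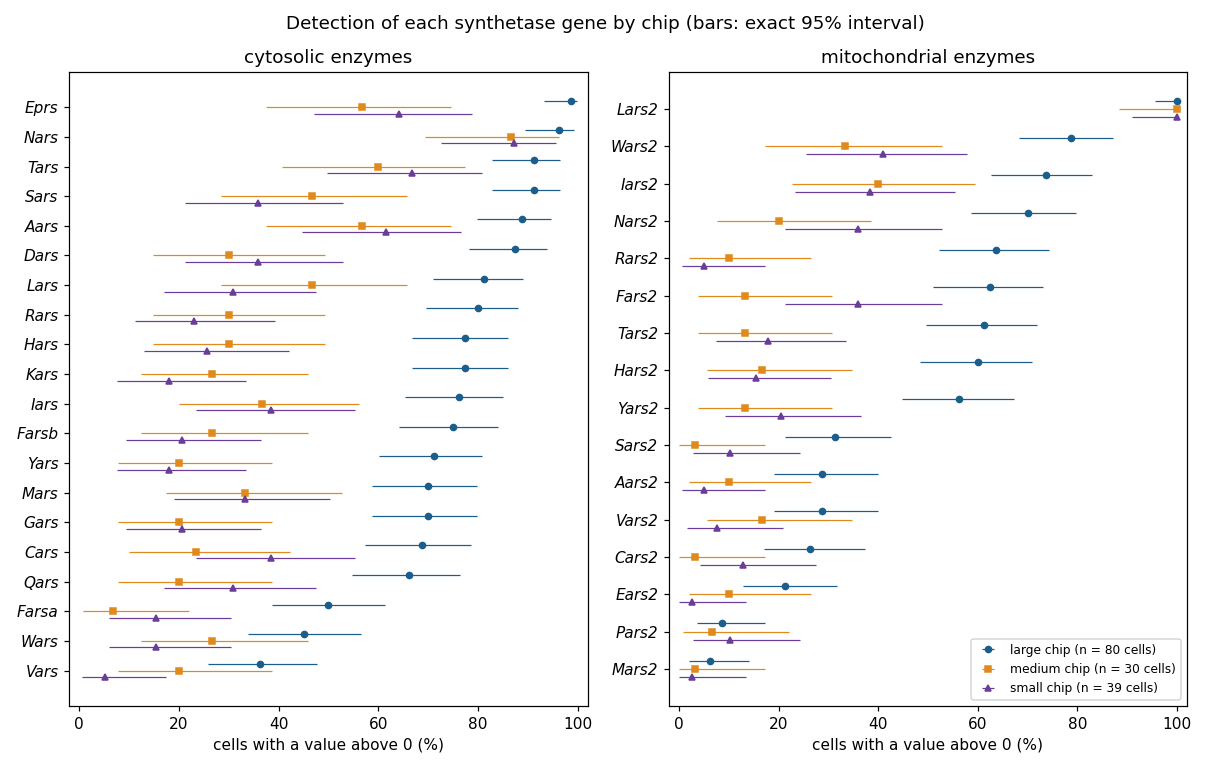
Share of cells (%) with a value above 0 for each gene shown, by chip, with exact 95% intervals; cytosolic enzymes on the left, mitochondrial on the right. Large-chip shares lie to the right of the others for nearly every gene, except Lars2, which is at 100% in all 3 chips, and Pars2, at 8.75%, 6.67% and 10.3%.

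Levels were compared between genes per kilobase of the longest protein-coding transcript, as means over the 80 large-chip cells. The cytosolic median was 9.65 (range 0.334 to 69.8), and the mitochondrial median was 2.65 (0.0540 to 32.3) over the 16 genes other than Lars2. A few cytosolic genes led. Nars stood at 69.8 per kilobase, Eprs at 55.5 and Dars, the aspartate enzyme, at 51.1. Tars, the threonine enzyme, followed at 37.2. Without division by length, Eprs, Nars and Tars together made up 50.98% of the summed cytosolic value of the chip.

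Mean and median lay closer together for Nars, Eprs and Tars than for Dars. Nars ran from 0 through a median of 153 to 1569 in the large chip (normalised expected count), with a mean of 191 ± 208 (SD over 80 cells). Eprs, the glutamate and proline enzyme (chr1:185363044-185428360), ran from 0 through 200.3 to 1512, with a mean of 272 ± 283. Dars ran from 0 through 51.6 to 3506, and 39.4% of its sum came from large-chip cell 7. The mean of Dars without that cell was 68.2, against 111 with it, and its median per kilobase was 23.7 against a mean of 51.1, so its place above Tars rests on 1 cell. High single values were common, since 26 of the 32 measured members had their highest large-chip value in 1 of the 23 cells whose summed value was 3e+06 or more.

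Among mitochondrial genes, Rars2 (arginine) and Hars2 (histidine) came after Lars2, at 32.3 and 14.7 per kilobase. Both means rest largely on 1 cell. Rars2 had a median of 2.97 and a maximum of 3051 in cell 24, which held 63.2% of its large-chip sum, and its mean was 60.3 with that cell and 22.5 without it. Hars2 had a median of 2.56 and a maximum of 2442 in cell 7, with 62.3% of its sum, and means of 49.02 and 18.7. Hars2 and Hars share 195 bases of exon on opposite strands, and whether the counting used strand is not given in the sources used here, so reads there may count for either.

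**Figure D2:**
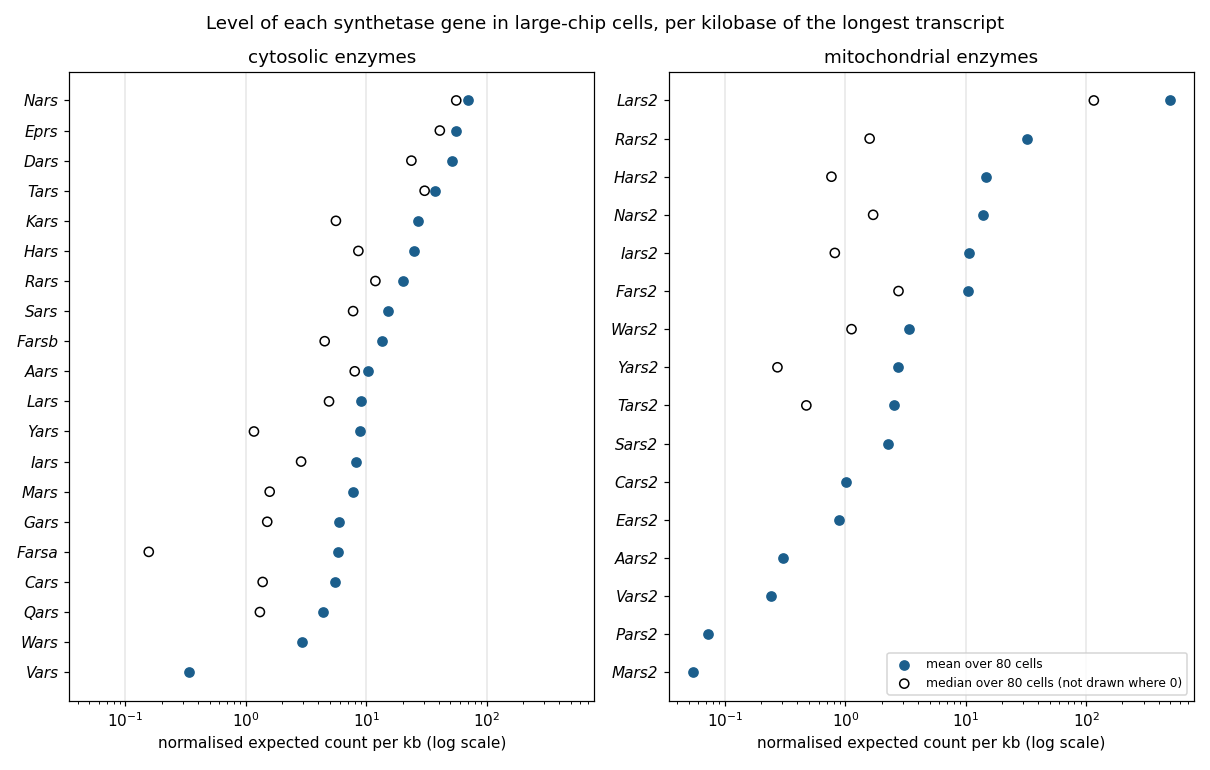
Large-chip level per kilobase (normalised expected count per kb, log scale) for each gene shown, as the mean (filled) and the median (open, not drawn where 0) over 80 cells. Lars2 stands at 494 and the next mitochondrial gene at 32.3, while Nars, Eprs and Dars lead the cytosolic panel; means and medians lie close together for Nars, Eprs, Tars and Aars and far apart for Farsa and most mitochondrial genes.

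For 14 amino acids the table holds 1 cytosolic and 1 mitochondrial gene that can be set side by side. The cytosolic gene had the higher mean per kilobase in 10 pairs and the mitochondrial gene in 4 (Lars2, Rars2, Iars2 and Wars2). The ratio of cytosolic to mitochondrial level was 33.7 for alanine (Aars at 10.3, Aars2 at 0.306), 14.7 for threonine (37.2 and 2.54), 6.71 for serine (15.3 and 2.27), 4.99 for asparagine (69.8 and 13.97), 3.21 for tyrosine (8.87 and 2.76) and 1.69 for histidine (24.9 and 14.7). Counted cell by cell, 2 of the 4 exceptions went the other way. Rars was higher than Rars2 in 42 of 80 cells and lower in 26, and Iars was higher than Iars2 in 48 and lower in 20. Wars2, the mitochondrial tryptophan enzyme, was higher than Wars in 47 cells and lower in 20. Lars2 was higher than Lars in all 80. Aars shares 1326 bases of exon with Exosc6, and Iars has a processed pseudogene, Gm4849, that matches it at 96.01% over 1656 bases. Neither Exosc6 nor Gm4849 has an entry in the table, so reads counted for Aars or Iars there may come from either gene. How many do was not tested.

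Partners of a pair had low rho values with each other from cell to cell. Over the 64 large-chip cells with spike-ins under 50%, the rho between partners had a median of 0.087. It was highest for Hars and Hars2 (0.15), which share exon bases. All pairs of measured genes had a median of 0.038 in the same cells. The cells share 1 mouse and 1 chip, and many members are at 0 in some of them.

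Lars2, the mitochondrial leucine enzyme (chr9:123366927-123462666), stood apart from all other synthetases. Its level ran from 191 through a median of 451 to 32608 in the large chip, from 222 through 1740 to 28079 in the medium chip and from 739 through 3586 to 33267.5 in the small chip. It was thus the 1 member whose median was higher in the small and medium chips than in the large one, although the ranges overlap. Per kilobase its large-chip mean was 494, against 8.9996 for Lars, and it made up 86.7%, 98.5% and 93.0% of the summed mitochondrial value in the large, medium and small chip. Sums of mitochondrial genes are therefore given without it.

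The level of Lars2 moved with the spike-in share in the large chip (rho 0.78 over its 80 cells), while the rho was -0.072 in the medium and 0.25 in the small chip. Its median was 432 in the 64 large-chip cells with spike-ins under 50% and 2068 in the other 16. After each cell was scaled to a sum of 1e+06 over mouse genes, the chip medians of Lars2 were 260 (large), 1792 (medium) and 3163 (small). In cells with spike-ins under 50% they were 248, 262 and 1288, so the large chip and the 7 medium-chip cells lay close together. Its longest transcript shares a stretch of 97 bases with AA474408, a transcript of undetermined type (94.8% identical), and 1 of 72 bases with the antisense RNA Gm15564 (98.6%), neither of which has an entry in the table. How much of its value comes from these stretches was not tested, and its level is uncertain.

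Over the 64 large-chip cells the genes most like Lars2 by Spearman rho were Igfbp4, an insulin-like growth factor binding protein (0.76), B2m, the light chain of class I histocompatibility molecules (0.75), Rpl36, a ribosomal protein (0.74), Sepp1, the selenoprotein that the liver secretes (0.74), and Gm20594 (0.73). Gm20594 is 88.4% identical over 439 bases to the mitochondrial large ribosomal RNA. Lars2 had 0 matches to that RNA at an expect value of 0.001.

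Along the column order the synthetases of both compartments leaned toward the periportal end in the mean over the 3 chips, as did measured genes in general. Each gene received a Spearman rho with a cell's place within each chip, where a negative rho means higher values at the periportal end. A gene was called graded when all 3 chips gave 1 sign and the mean rho was at least 0.2 in size. Of the 20 cytosolic genes 4 were graded toward the periportal end (Eprs, Sars, Kars and Hars), of the 12 measured mitochondrial genes 2 were (Iars2 and Rars2), and 0 of either went toward the pericentral end. Over all measured genes 15.4% were graded toward the periportal end and 0.692% toward the pericentral end, so these counts lie near the background. The median of the mean rho was -0.12 for both compartments and -0.10 for all measured genes. In the large chip alone the median rho was -0.052 for cytosolic, 0.029 for mitochondrial and -0.026 for all measured genes.

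Eprs had the lowest mean rho of the cytosolic genes, -0.27 ± 0.10 (SD, n = 3 chips), from -0.19, -0.38 and -0.23 in the large, medium and small chip. Sars, the serine enzyme, followed at -0.25 ± 0.14 (-0.19, -0.40 and -0.14), and Kars, the lysine enzyme, at -0.23 ± 0.13 (-0.090, -0.34 and -0.27). Hars, the histidine enzyme, had -0.23 ± 0.12 (-0.12, -0.36 and -0.21). In each of them the medium chip gave the steepest value. In that chip a cell's place also had a rho of -0.41 with the number of genes above 0, and in the large chip 0.22. Holding that number constant gave Eprs a mean rho of -0.16, Kars -0.16, Sars -0.19 and Hars -0.20, so that Eprs, Kars and Sars fell short of the limit of 0.2. Among cells with spike-ins under 50% the mean rho of Eprs was 0.094 and of Kars 0.094, the reverse of all cells. That of Sars was -0.19 and that of Hars -0.072, both short of the limit of 0.2. In the large chip alone Eprs had -0.25 there.

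Iars2, the mitochondrial isoleucine enzyme (chr1:185284726-185329396), had a mean rho of -0.26 ± 0.18 (-0.064, -0.29 and -0.42) and Rars2 -0.21 ± 0.084 (-0.17, -0.16 and -0.31). Rars2 was above 0 in only 3 of 30 medium-chip and 2 of 39 small-chip cells, so its rho there rests on few cells. Its mean rho was -0.15 with spike-ins under 50% and -0.17 with the number of genes above 0 held constant, both short of 0.2. Those of Iars2 were -0.27 and -0.22. Yars2, the mitochondrial tyrosine enzyme, reached -0.22 ± 0.27, but its chips differed in sign (0.026, -0.50 and -0.19). Its cytosolic partner Yars had -0.11 and Iars -0.18, both with mixed signs. Exons of Iars2 overlap those of Rab3gap2 by 2034 bases on the opposite strand, so reads of the pair cannot be told apart without strand.

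In cells with spike-ins under 50% the graded members were Tars, Qars and Iars2, of which Iars2 was also graded over all cells. Of the cytosolic genes Tars was graded toward the periportal end and Qars toward the pericentral end, 1 in each direction. Of the mitochondrial genes Iars2 was graded toward the periportal end and 0 toward the other. This compares with 12.6% and 5.5% of all measured genes. The median of the mean rho was -0.078 for cytosolic genes, -0.011 for mitochondrial genes and -0.055 for all measured genes. The medium chip has 7 cells in that set. Without the cells that held at least 3 markers of another cell type, 8 members were graded, all toward the periportal end, against 27.9% of all measured genes in either direction.

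**Figure D3:**
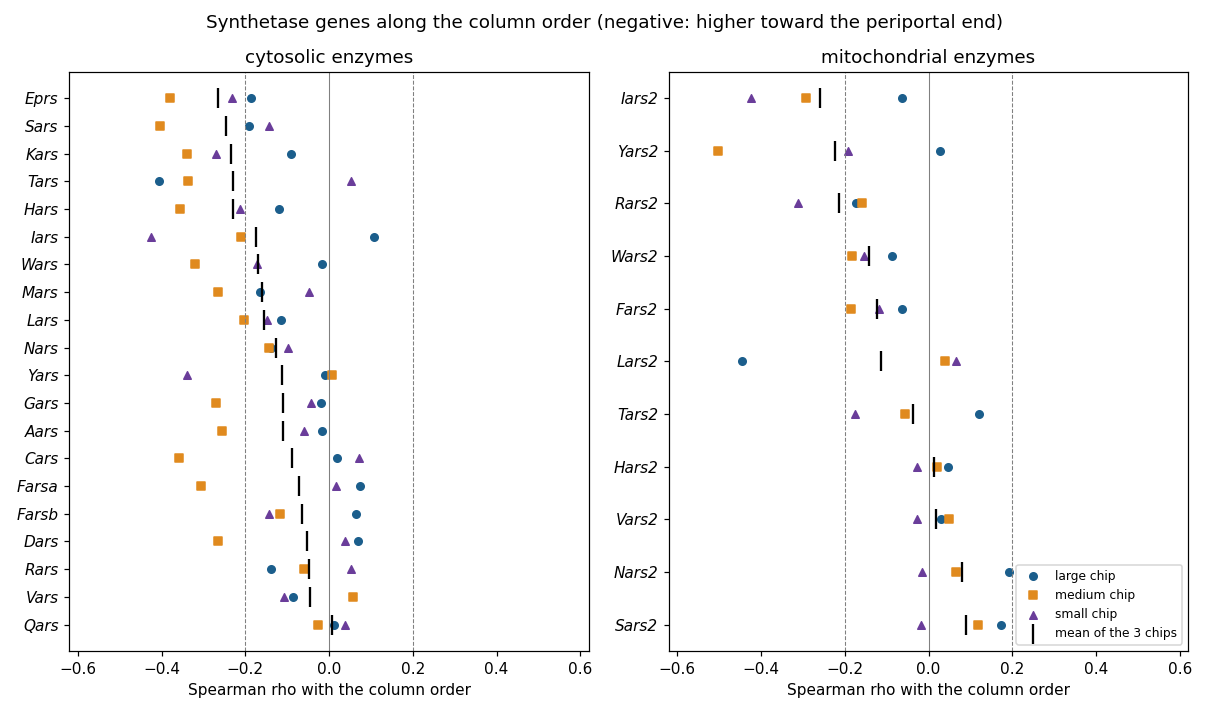
Spearman rho of each measured gene shown with a cell's place in the column order, by chip, with the mean of the 3 chips as a bar; dashed lines mark 0.2 in size. Means lie mostly between -0.27 and 0.09, chips scatter widely around them, and Tars and Lars2 have large-chip values of -0.41 and -0.45 that the small chip does not share.

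The large chip has the most cells, and there 2 members stood past 0.2 in size, both toward the periportal end. They were Tars (rho -0.41) and Lars2 (-0.45), 1 of 20 cytosolic and 1 of 12 mitochondrial genes, against 12.5% of all measured genes toward the periportal and 5.91% toward the pericentral end. With spike-ins under 50% the periportal set was Tars (-0.45), Eprs (-0.25) and Lars2 (-0.59), and Nars2, the mitochondrial asparagine enzyme, lay toward the pericentral end (0.28). The shares of all measured genes past 0.2 were then 15.3% and 9.67%.

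Tars (chr15:11382301-11399665) had a median of 138, 217, 27.02, 93.1 and 64.1 in the 5 successive groups of 16 large-chip cells from the periportal to the pericentral end. The middle group held 9 of the 16 cells with high spike-in shares and a median of 3327 genes above 0. Without those cells the medians were 138, 214, 139, 107 and 64.1, and the lowest and highest values at the ends were 52.5 and 388 against 19.02 and 221. The ranges overlap, with the pericentral group lower at the median. Holding the number of genes above 0 constant gave Tars a rho of -0.51, and leaving out the large-chip cells with a summed value of 3e+06 or more gave -0.56 over 57 cells. The medium chip gave -0.34 and the small chip 0.053, so Tars was not graded by the rule of 3 chips.

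Lars2 had medians of 478, 470, 1250, 398 and 315 over the same groups, and of 456, 452, 547, 354 and 315 with spike-ins under 50%. Its rho over the 64 cells was -0.59, and with genes above 0 it was -0.52 in the same cells. Holding the number of genes constant left -0.51. A cell's place itself had a rho of -0.37 with the spike-in share over the 80 large-chip cells, and that share was not held constant. The medium and small chips gave 0.038 and 0.064.

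Eprs had medians of 269, 218, 98.0, 183 and 207, and of 315, 213, 171, 219 and 207 with spike-ins under 50%. The periportal group was thus the highest and the other 4 did not follow an order. Sars had medians of 63.3, 36.01, 8.56, 14.3 and 26.2 over all cells, and of 63.3, 37.9, 9.13, 56.3 and 26.2 with spike-ins under 50%, where the middle group was again the lowest. Nars, the most abundant per kilobase, had 158, 230, 95.6, 149 and 153, with a rho of -0.14. With spike-ins under 50% its medians were 164, 227, 272, 159 and 153, and the middle group, lowest over all cells, was then the highest. For scale, Cyp2e1 went from a median of 14.8 to one of 16505 over the same cells.

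Summed over the 20 cytosolic genes, the large-chip medians were 1206, 1366, 678, 1011 and 930 from the periportal to the pericentral end. With spike-ins under 50% they were 1231, 1362, 1023, 1049 and 930. The rho of the sum with the order was -0.36 over 80 cells and -0.45 over the 64, where the sum also had a rho of -0.38 with the number of genes above 0. Holding that number constant left -0.37. Without Tars the sum gave -0.33, and without Eprs, Nars and Tars -0.27. Gene by gene, the median rho over the 64 cells was -0.012 for cytosolic genes and -0.018 for all measured genes, so the sum does not describe the typical member. The medium chip gave -0.49 and the small chip -0.17 over all cells, and -0.14 and -0.077 with spike-ins under 50%.

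The mitochondrial sum without Lars2 was flatter in the large chip. Its medians were 170, 156, 17.3, 146 and 166 over all large-chip cells and 172, 153, 223, 191 and 166 with spike-ins under 50%. The rho with the order was -0.090 and -0.10. In the small chip it was -0.29 over 39 cells and -0.45 over the 12 with few spike-ins, steeper than the cytosolic sum there (-0.17 and -0.077). In the medium chip it was -0.21 over all cells and 0.036 with few spike-ins. The difference between the compartments was not tested.

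**Figure D4:**
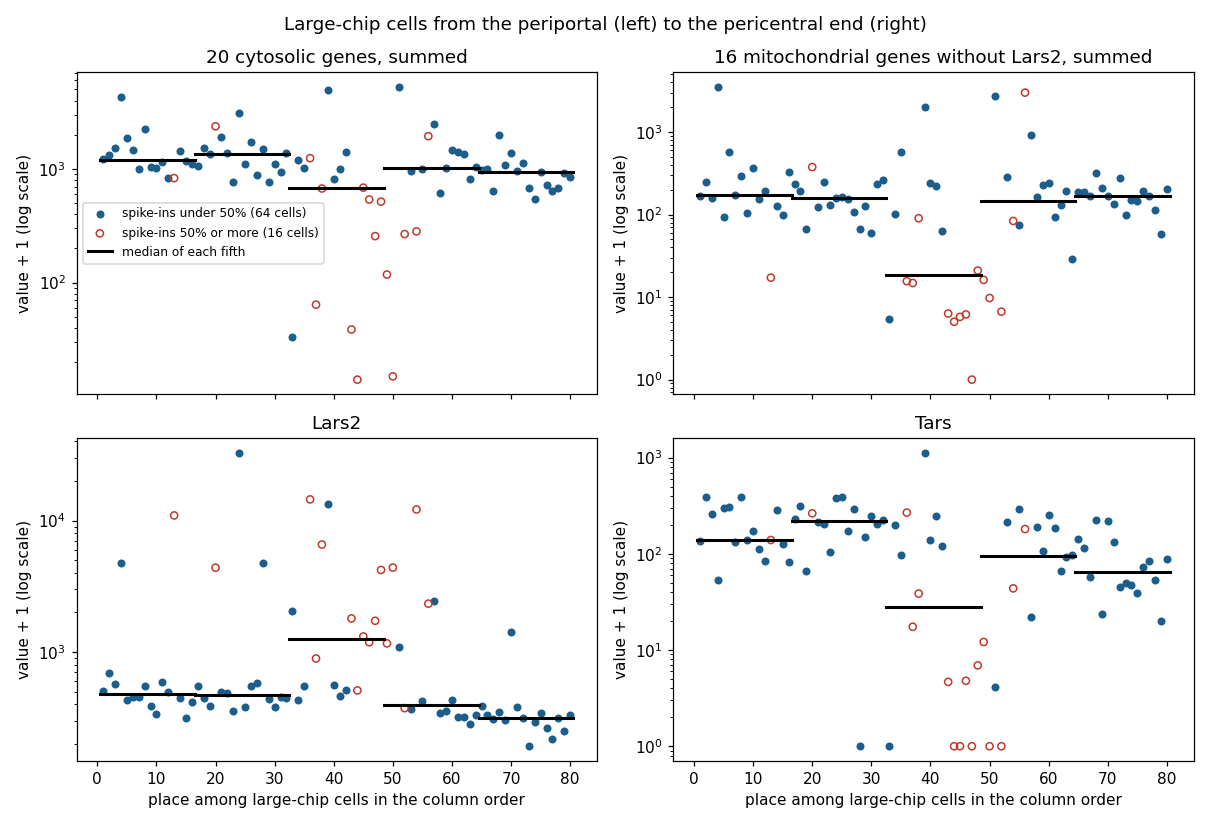
Values of 80 large-chip cells (value + 1, log scale) against their place in the column order, for the summed cytosolic genes, the summed mitochondrial genes without Lars2, Lars2 and Tars; open red points are the 16 cells with spike-ins of 50% or more and bars are medians of 16 cells. The red cells gather in the middle, where the sums and Tars are low and Lars2 is high, and Tars ends at a median of 64.1 on the right against 138 on the left.

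Between chips, means were compared as log2 ratios with a pseudocount of 1, and a ratio of 1 in size (2-fold) was the limit. Of the 20 cytosolic genes 9 were at least 2-fold higher in the large than in the small chip and 4 at least 2-fold lower. Of the 12 mitochondrial genes 4 were higher and 4 lower. Over all measured genes 41.9% were higher and 12.8% lower, and 5 of the 8 members on the lower side did not stay there without their highest cells, as described next. The median log2 ratio was 0.89 for cytosolic, 0.48 for mitochondrial and 0.72 for all measured genes. The ratios used values not rescaled per cell. Median summed values were 1.82e+06, 5.68e+06 and 5.54e+06 in the large, medium and small chip, and 1.76e+06, 9.67e+05 and 9.10e+05 over mouse genes alone. Trap size, summed value, spike-in share, genes above 0 and markers of other cell types differ together between chips, and their parts cannot be told apart.

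Dars had the largest ratio among the higher cytosolic genes (log2 2.42). It ran from 0 through 51.6 to 3506 in the large chip, from 0 through 0 to 438 in the medium chip and from 0 through 0 to 264 in the small chip. Farsa, a phenylalanine enzyme subunit, followed at 2.29, with means of 10.7 ± 22.8 in the large chip and 1.39 ± 4.49 in the small chip (SD over cells). Farsb, its partner subunit, stood at 1.56. Of the mitochondrial genes Hars2 had 4.40 (means 49.02 and 1.37) and Rars2 2.91 (60.3 and 7.13).

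Sars and Yars2 were higher in the small chip. Sars had medians of 27.8 and 0 in the large and small chip but means of 54.5 and 307, a log2 ratio of -2.47, since a few small-chip cells reached up to 3351. Yars2 had medians of 0.765 and 0 and means of 7.75 and 126 (-3.86), and small-chip cell 10 gave 55.6% of its small-chip sum. Their medians and means therefore order the chips in opposite ways.

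Single cells set several other ratios. Small-chip cell 39 held 96.7% of the small-chip sum of Rars, the arginine enzyme, at 4446, and cell 25 held 72.5% of that of Aars at 8145 and 91.6% of that of Iars2 at 4530. Leaving out the highest cell of each gene in each chip turned Rars from -1.43 to 3.02, Iars2 from -1.11 to 1.04, Wars from -1.01 to 1.14 and Vars2 from -1.66 to 0.71, and moved Aars from -2.26 to -0.53. Then 12 of 20 cytosolic genes were at least 2-fold higher in the large chip and 1 lower (Sars), and 8 of 12 mitochondrial genes were higher and 2 lower (Lars2 and Yars2), against 60.4% and 2.86% of all measured genes. With that cell left out the median log2 ratios were 1.15, 1.23 and 1.30 for cytosolic, mitochondrial and all measured genes.

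With spike-ins under 50% the medians of both compartments turned negative, the cytosolic one only slightly. They were -0.092 for cytosolic genes and -0.35 for mitochondrial genes, against 0.12 for all measured genes. Of the cytosolic genes 5 were at least 2-fold higher in the large chip and 7 lower, and of the mitochondrial genes 4 and 4, against 26.7% and 25.0% of all measured genes. In that set 8 of the 12 small-chip cells had a summed value of 3e+06 or more, against 7 of the 64 large-chip cells. These ratios therefore compare cells of unlike summed value, and how much this adds to them was not tested. Against the medium chip, over all cells, 9 cytosolic genes were at least 2-fold higher in the large chip and 4 lower, and 8 mitochondrial genes were higher and 0 lower, against 37.5% and 12.7%. Cars, the cysteine enzyme, was lower there (-2.72), with 97.1% of its medium-chip sum in cell 20 at 3549.

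**Figure D5:**
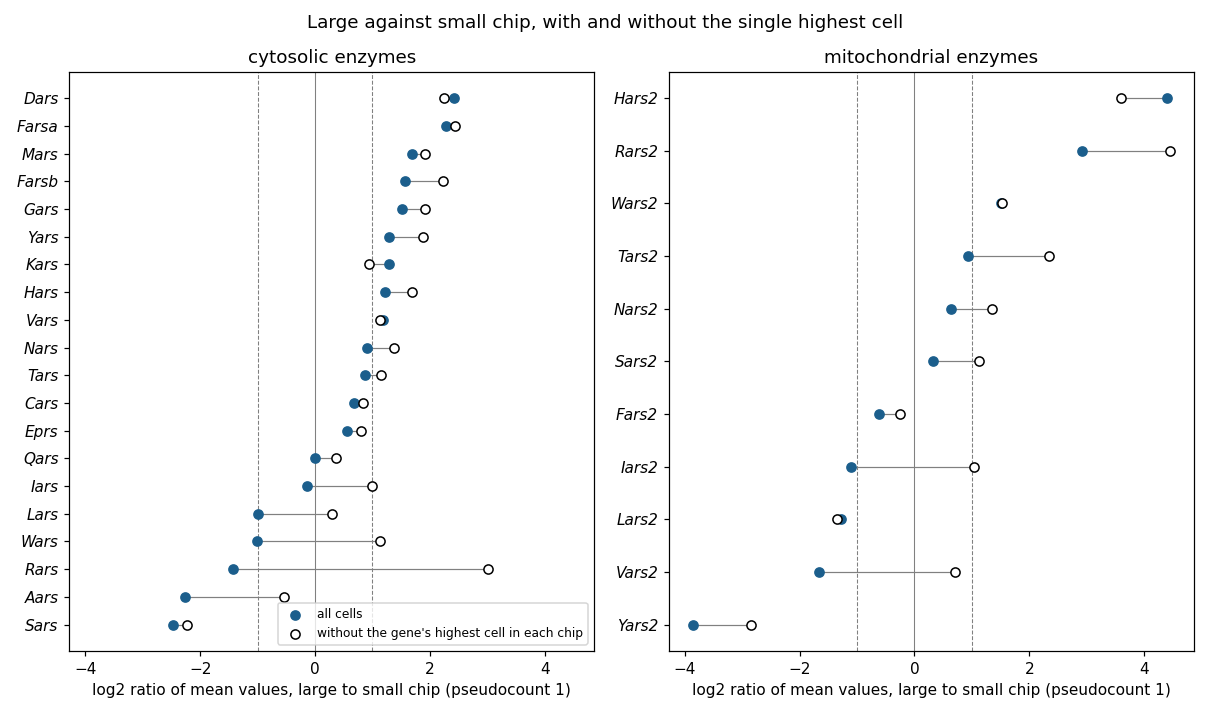
Log2 ratio of mean values, large to small chip (pseudocount 1), for each measured gene shown, over all cells (filled) and without the gene's highest cell in each chip (open); dashed lines mark 2-fold. Rars, Wars, Iars2 and Vars2 cross from the left of 0 to the right, while Sars, Lars2 and Yars2 stay to the left past the 2-fold line.

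The 8 members of the multi-synthetase complex were set beside the other 12 cytosolic genes. The median of the mean rho with the order was -0.16 for the complex and -0.11 outside it, with 2 graded genes in each (Eprs and Kars of 8, and Sars and Hars of 12), against 15.4% of all measured genes. Over the 64 large-chip cells with few spike-ins the median rho between 2 members of the complex was 0.047, between 2 genes outside it 0.083 and between the groups 0.061. The median within the complex was the lowest of these. The highest pairs were Sars with Tars (0.40), Dars with Lars (0.38), Fars2 with Yars2 (0.38), Cars with Mars (0.35) and Eprs with Lars2 (0.35), the highest of 190 cytosolic, 66 mitochondrial and 240 mixed pairs.

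Genes that work beside the synthetases were described from lists made with earlier results known, and their counts stand against 15.4% of all measured genes graded toward the periportal and 0.692% toward the pericentral end. Of 8 measured complex scaffolds, tRNA helpers and the Tars-like Tarsl2 (Aimp1, Aimp2 and Eef1e1 hold the complex together) 0 were graded in either direction. Their median of the mean rho was -0.081, and Tarsl2 is a gene that the symbol rule for members leaves out. Of 5 cytosolic elongation factors, which bring charged tRNA to the ribosome, 1 was graded toward the periportal end. This was Eef1a1 (-0.31 ± 0.10), which carries the charged tRNA, with large-chip mean values of 4327. Of 6 mitochondrial factors 1 was graded likewise, Tufm (-0.21 ± 0.17), the mitochondrial counterpart of Eef1a1. Of 10 measured genes of the amino acid response 2 were graded toward the periportal end, Eif4ebp1 (-0.27 ± 0.15), a repressor of translation, and Atf5 (-0.23 ± 0.16), a transcription factor downstream of ATF4. Asns, Psat1 and Phgdh, which make asparagine and serine, were among the 10 genes of that list below the limit of 20% of cells.

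The genes with the profile most like the cytosolic sum over the 64 large-chip cells were Atp5g1, a subunit of ATP synthase (rho 0.67), Cox6c, a subunit of cytochrome c oxidase (0.66), Prrc2c (0.64), Myl6, a myosin light chain (0.64), and Tomm6, of the mitochondrial import pore (0.63). For the mitochondrial sum with Lars2 they were Rpl36 (0.74), Igfbp4 (0.73), Gm20594 (0.71), Sepp1 (0.68) and Rps27a, a ribosomal protein fused to ubiquitin (0.67). Without Lars2 they were Rps3, a ribosomal protein (0.55), Acsl5, which activates fatty acids (0.54), 1700016D06Rik (0.50), Nbr1, an autophagy receptor (0.50), and Ctnna1, a catenin (0.46). The cells share 1 chip and 1 mouse, and after each cell was scaled to 1 sum Atp5g1 had 0.53 and Cox6c 0.49 with the cytosolic sum.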

How the data were processed

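RNA of 149 single cells was measured in 3 chips. Per the submitters' processing notes, CASAVA 1.8.2, Bowtie 0.12.9 and RSEM 1.2.3 were used with mm10. The authors deposited 1 table of normalised expected counts, used here as a signal, whose name mentions SCnorm and WaveCrest. The labels describe neither step, nor strand or cell filters. Whole counts and depth are not known.

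Samples were grouped by chip from the labels. All columns were mapped. Spearman rho used log2(value + 1). Chips were compared by log2 ratios of means. Full values go to the 3 genes per compartment with the highest level, mean rho and chip ratio in size. Members and lists were chosen with earlier results of these data known. Lengths and coordinates came from mouse GENCODE release 21, promoters from RefSeq (GRCm38.p6). Similar transcripts were found with blastn 2.17.0. The rho and the graded rule were tested on simulated data. The own values of 1 mitochondrial member are not reported here. No doublet caller and no test were run. Alternatives covered axis, cells, scaling, filters, pseudocount, membership, chips and lengths. Software was Python 3.11.15 with matplotlib 3.10.9 for plots, scipy 1.17.1 and pandas 2.3.3 for the values, and numpy 2.4.6.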

Additional observations from a re-analysis of the deposited data

How the results depend on the processing

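No paired analysis was possible because no test was run and the cell numbers that chips share only name cells. Along the order, 6 members were graded over all cells, against 16.1% of all measured genes. The count was 3 with spike-ins under 50% (against 18.1% of all measured genes, in either direction), with Pearson r (15.4%), with the number of genes above 0 held constant (8.25%) and without the medium chip (13.9%), 10 without the large chip (32.3%) and 0 at a mean rho of 0.3 (3.86%), and 5 to 9 elsewhere. The mitochondrial median rho (-0.12) was -0.011 with spike-ins under 50% and -0.023 with the number of genes held constant. The median rho of the amino acid response (-0.11) was -0.16 on the landmark score, -0.15 with spike-ins under 50%, -0.074 after rescaling, -0.17 with Pearson r, -0.032 with the number of genes held constant, -0.15 and -0.076 under the stricter and looser filter and -0.14 without cells holding markers of another type. Between chips, 21 members were past 2-fold (against 54.7% of all measured genes), and 12 with a pseudocount of 10 (32.9%) and 12 with the filter at 50% of cells (49.8%), where fewer genes were counted. The median share of large-chip cells above 0 (70%) was 33.8% at a limit of 10. With spike-ins under 50% Eprs (0.094) and Kars (0.094) reversed along the order, and Hars (-0.16), Yars (-0.020) and Vars2 (0.61) between chips. As means of log2 values, Aars (1.86), Rars (2.85), Sars (2.31), Wars (0.59), Iars2 (1.03), Vars2 (0.25) and Yars2 (0.45) reversed, and without the highest cell Rars (3.02), Wars (1.14), Iars2 (1.04) and Vars2 (0.71). The causes were not tested, apart from single cells in the last set. Of the other values of single members, 60 along the order and 183 between chips kept their direction and limit, and 19 and 22 fell short of it. Settings that change only the filter or the membership leave the value of a single member as it was. Part of the 60 and the 183 could therefore not have come out otherwise. Cells of 1 mouse and unknown depth limit all results.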

Other observations

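Genes of the amino acid response were set beside the synthetases within cells. Over the 64 large-chip cells with spike-ins under 50% the median rho of its 10 measured genes with the cytosolic sum was 0.23, against 0.065 for all measured genes, and 0.10 with the mitochondrial sum without Lars2, against 0.065. Eif4ebp1 (0.47) and Atf4 (0.41), the factor that drives the response, had the highest values with the cytosolic sum. Chac1, which degrades glutathione (-0.28), and Slc3a2, a subunit of amino acid transporters (-0.10), were negative. After each cell was scaled to 1 sum, Eif4ebp1 had 0.48 and Atf4 0.30. With the mitochondrial sum without Lars2, Atf4 had -0.14. These cells share 1 chip and 1 mouse, and the difference between the compartments was not tested.

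High values of several members fell in the same cells. Large-chip cell 71 held the highest value of 6 measured members (Hars, Iars, Lars, Tars, Yars and Nars2), cell 7 of 5 (Dars, Mars, Hars2, Sars2 and Tars2) and cell 24 of 4 (Cars, Kars, Rars2 and Vars2). Their summed values were 5.57e+06, 5.36e+06 and 5.56e+06, against a chip median of 1.82e+06, and spike-ins took 35.99%, 34.04% and 29.8%, against a median of 3.66%. In the small chip, cell 1 held the highest value of 5 members and cell 25 of 4, and in the medium chip cell 21 of 6. The part of the summed value in these maxima was not tested.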
